A study of Mus musculus with 2 samples.

Results

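The Mir322/Mir503 polycistron is a group of 7 microRNA (miRNA) genes that lie close together on 1 strand of the mouse X chromosome. They are described as cut from a shared primary transcript. Its members were taken by name: Mir322, Mir503, Mir351, Mir542, Mir450a-1, Mir450a-2 and Mir450b, out of 2202 miRNA genes in the deposited tables. Small RNA was sequenced from whole adrenal glands of B6CASTF1/J males on postnatal day 4. The series held 1 group of 2 libraries, biological replicate 1 from the male numbered 3 and biological replicate 2 from the male numbered 4. B6CASTF1/J is the first-generation cross of C57BL/6J and CAST/EiJ mice, and males carry a single X chromosome. The labels name no treatment and the series has no comparison of conditions. They give the same donor to both libraries. That these are different animals rests on how the males are numbered, and differences between the libraries may be partly technical.

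Levels are given as CPM, the reads on the gene's own strand scaled to a total of 1000000 such reads over all miRNA genes of the library. Those totals were 3961630 reads in replicate 1 and 1686822 in replicate 2. Markers of the gland were present in both libraries. The neuroendocrine Mir375, Mir7b and Mir7-1 of the medulla summed to 36161 and 46603 CPM in replicates 1 and 2. The steroidogenic list (Mir202, Mir212 and Mir132) summed to 516 and 1073 CPM, the endothelial Mir126a stood at 65222 and 83391 CPM, and the stromal list summed to 44515 and 41751 CPM. Some markers of other tissues differed far more between the libraries. Mir122 of liver stood at 1299 and 20602 CPM, and the red blood cell list of Mir451a, Mir144 and Mir486 summed to 7248 and 595 CPM.

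MiRNAs silence messenger RNAs that pair with the seed, bases 2 to 8 of the mature strand. The products of Mir322 and Mir503 belong to the extended miR-15/16 group, which lowers cyclins, cyclin-dependent kinase activators and growth factor receptors and is known for holding cells out of the cell cycle, for example when myoblasts differentiate. Mir322 is the mouse counterpart of human miR-424. The Mir351 product carries the seed of miR-125, the mammalian relative of the developmental timing miRNA lin-4.

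All 7 hairpins lay on the minus strand of chromosome X (mm10) within 6353 bases, from 53047997 to 53054349. In the direction of transcription Mir322 came first, at 53054255 to 53054349. Mir503 followed at 53053984 to 53054054, after a gap of 200 bases, and Mir351 at 53053255 to 53053353, after 630 bases. A gap of 3767 bases separated Mir351 from Mir542, at 53049403 to 53049487. The remaining members sat at the far end, Mir450a-2 at 53048299 to 53048367, Mir450a-1 at 53048154 to 53048244 and Mir450b at 53047997 to 53048078. The gap was 1035 bases before Mir450a-2, 54 bases before Mir450a-1 and 75 bases before Mir450b. The gene identifiers, in the same order, are ENSMUSG00000065418.1, ENSMUSG00000076122.1, ENSMUSG00000065503.1, ENSMUSG00000076140.1, ENSMUSG00000076399.1, ENSMUSG00000065486.1 and ENSMUSG00000076050.1. In GENCODE M21 no member overlapped another gene. The noncoding gene C430049B03Rik ended 696 bases upstream of Mir322, and the lincRNA Gm28730 (53051194 to 53053159) filled part of the gap between Mir351 and Mir542. RefSeq draws C430049B03Rik longer, from 53053112 to 53057190, so that it spans Mir322, Mir503 and Mir351.

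The mature strands below, from RefSeq (GRCm38.p6), show which members share a target code, with the seed in capitals. The counts do not separate the 5p and 3p strands of a hairpin, so the strand usually described as the main product is shown for each.
miR-322-5p: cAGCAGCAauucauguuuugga
miR-503-5p: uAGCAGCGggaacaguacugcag
miR-351-5p: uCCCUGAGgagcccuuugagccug
miR-542-3p: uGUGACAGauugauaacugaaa
miR-450a-5p: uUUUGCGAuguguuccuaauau
miR-450b-5p: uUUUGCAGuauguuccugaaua

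No seed was shared by any 2 of these 6 strands. The Mir322 and Mir503 strands matched over bases 2 to 7 and differed at base 8. The seed AGCAGCA of miR-322-5p occurred in 10 of 1679 mature forms in the RefSeq table, and CCCUGAG of miR-351-5p in 5. The seeds of miR-503-5p, miR-542-3p, miR-450a-5p and miR-450b-5p each occurred in 1 form, their own. miR-450a-5p and miR-450b-5p were identical at 15 of 22 positions, yet their seeds parted from base 7 on.

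The relatives outside the polycistron are printed for the comparison of levels further on, again with the seed in capitals.
miR-15a-5p: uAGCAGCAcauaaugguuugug
miR-15b-5p: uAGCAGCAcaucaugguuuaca
miR-16-5p: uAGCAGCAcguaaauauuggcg
miR-195a-5p: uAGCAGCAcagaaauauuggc
miR-497a-5p: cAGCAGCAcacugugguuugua
miR-125a-5p: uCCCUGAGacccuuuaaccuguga
miR-125b-5p: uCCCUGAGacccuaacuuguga

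All 7 members were detected, taken as at least 10 reads in both libraries. Their counted levels ranged over 3 orders of magnitude, down to the Mir450a genes, whose counts are lower limits as described below. Together the 7 members held 6.12% of miRNA counts in replicate 1 (95% exact interval 6.10 to 6.15%) and 4.43% in replicate 2 (4.40 to 4.46%), a mean of 5.28% ± 1.20 (SD, n = 2). Mir322 alone made most of this. It was counted 209485 times in replicate 1, or 52878 CPM, and 58058 times in replicate 2, or 34419 CPM. Mir322 ranked 5th of all miRNA genes in replicate 1 and 8th in replicate 2. Its mean of 43649 ± 13053 CPM lay between Mir10a (59253 ± 8923 CPM) and Mir143 (39753 ± 2564 CPM). Mir322 exceeded Mir143 in replicate 1 only, since Mir143 stood at 37940 CPM in replicate 2, so their order was not larger than the spread between libraries. These shares and ranks are of counted reads only. Reads matching several loci, 3176275 in replicate 1 and 1684373 in replicate 2, were given to no gene. Genes whose product comes from several loci may therefore stand too low beside Mir322, by an unknown amount.

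Mir351 was the next member, far below Mir322. It had 23701 counts in replicate 1, or 5983 CPM, and 12990 in replicate 2, or 7701 CPM, and ranked 33rd and 29th. The lower of these values was more than 5 times the highest value of any member after it. Its mean of 6842 ± 1215 CPM lay between Mir431 (7321 ± 249 CPM) and Mir98 (6664 ± 2118 CPM), from neither of which it differed beyond the spread.

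Mir542 and Mir503 had similar, moderate levels. Mir542, whose product is known for lowering survivin, had 4610 and 1735 counts, or 1164 and 1029 CPM in replicates 1 and 2. Mir503 had 3426 and 1563 counts, or 865 and 927 CPM. Mir542 was the higher in both libraries, and its 95% exact interval for counting error lay above that of Mir503 in each. That order was not tested across the animals. In mean level Mir542 (1096 ± 95.5 CPM, rank 90) lay between Mir29a and Mir381, and Mir503 (896 ± 43.7 CPM, rank 95) between Mir380 and Mir18.

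The Mir450 genes at the far end were lowest. Mir450b had 1052 and 319 counts, or 266 and 189 CPM, close to the median gene among the 340 detected (208 and 199 CPM). Mir450a-1 had 176 and 38 counts, or 44.4 and 22.5 CPM. Mir450a-2 had 114 and 69 counts, or 28.8 and 40.9 CPM. Mir450a-1 was above Mir450a-2 in replicate 1 and below it in replicate 2, so their order changed with the library. The 95% exact interval of the ratio of Mir450a-2 to Mir450a-1 lay below 1 in replicate 1 (0.507 to 0.824) and above 1 in replicate 2 (1.20 to 2.77). By mean level they ranked 261st and 266th of 2202.

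**Figure D1:**
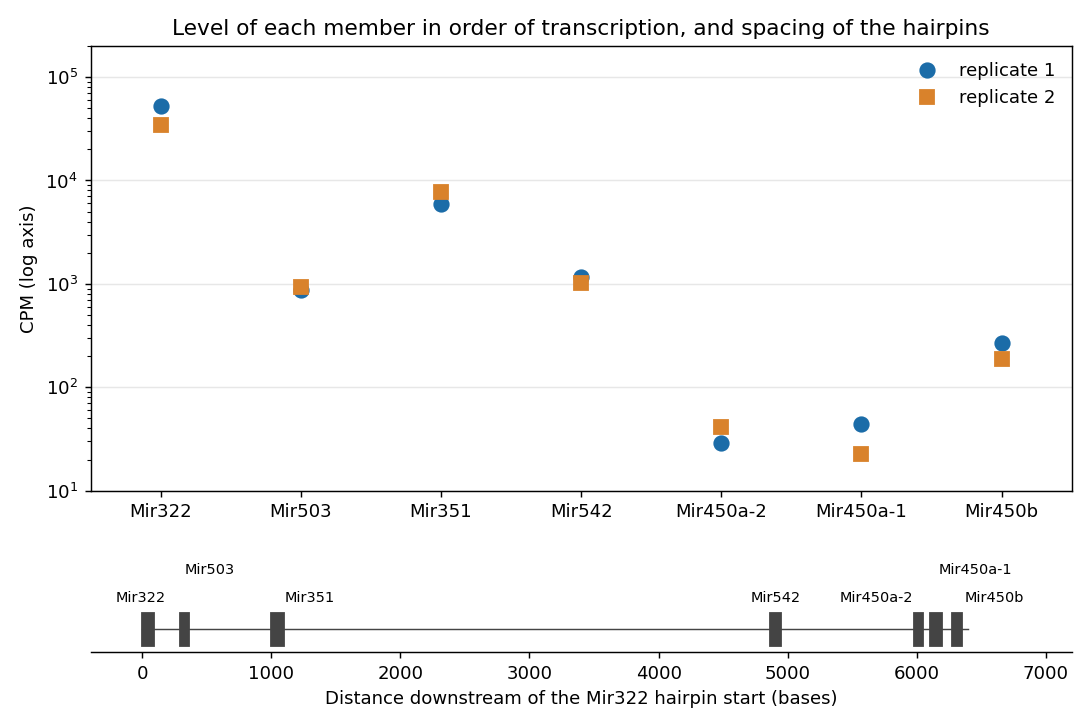
Level of each member in order of transcription (CPM, log axis; 1 point per library) above a map of the hairpins by distance in bases from the start of Mir322. Mir322 stands at 52878 and 34419 CPM, the neighbouring Mir503 at 865 and 927 CPM, and levels do not fall steadily with distance.

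The low values of the Mir450a genes need their sequences beside them. Their RefSeq hairpins are printed with the longest stretch they share in capitals.
Mir450a-1: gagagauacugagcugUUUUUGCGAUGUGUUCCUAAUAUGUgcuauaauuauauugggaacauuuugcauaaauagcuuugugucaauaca
Mir450a-2: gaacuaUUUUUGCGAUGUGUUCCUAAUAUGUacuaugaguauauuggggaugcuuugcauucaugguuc

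The shared stretch of 25 bases holds the whole of miR-450a-5p, which is 22 bases long and is made from both loci. The deposited tables give reads with several matching loci to no gene, and total them at 3176275 in replicate 1 and 1684373 in replicate 2. A 5p read within the shared stretch could not be given to either gene, so these counts are lower limits for the miR-450a product, by an unknown amount. The 3p strands do differ, but miR-450a-1-3p and miR-450b-3p are alike over their first 18 bases.
miR-450a-1-3p: aUUGGGAAcauuuugcauaaau
miR-450a-2-3p: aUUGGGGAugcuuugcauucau
miR-450b-3p: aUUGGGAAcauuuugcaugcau

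Capitals again mark the seed, which miR-450a-1-3p and miR-450b-3p share. Mature strands of Mir322, Mir503, Mir351 and Mir542 shared at most 11 bases in a row with any other of the 1005 hairpins in the table. Nearly all reads at the members came from their own strand. The opposite strand held 1 read in both libraries together, at Mir322.

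The members' counts were very unequal, although the members are described as cut from 1 transcript. Mir322 held 86.4% of the polycistron's counts in replicate 1 (95% exact interval 86.2 to 86.5%) and 77.6% in replicate 2 (77.3 to 77.9%). Mir351 held 9.77% and 17.4%, Mir542 1.90% and 2.32%, Mir503 1.41% and 2.09%, and Mir450b 0.434% and 0.427%. Each Mir450a gene held under 0.1%. The highest member exceeded the lowest 1838-fold in replicate 1 and 1528-fold in replicate 2. The lowest was a Mir450a gene in both libraries. Counts of the Mir450a genes are lower limits, so these folds are upper limits. Evenness, the Shannon index of the shares divided by its maximum (1 when all members are equal), was 0.268 and 0.361. Without the Mir450a genes the mean evenness was 0.374, against 0.315 with them. These are ratios of read counts. Mature strands of the members are of like length, 21 to 24 bases, and counts were not divided by length.

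**Figure D2:**
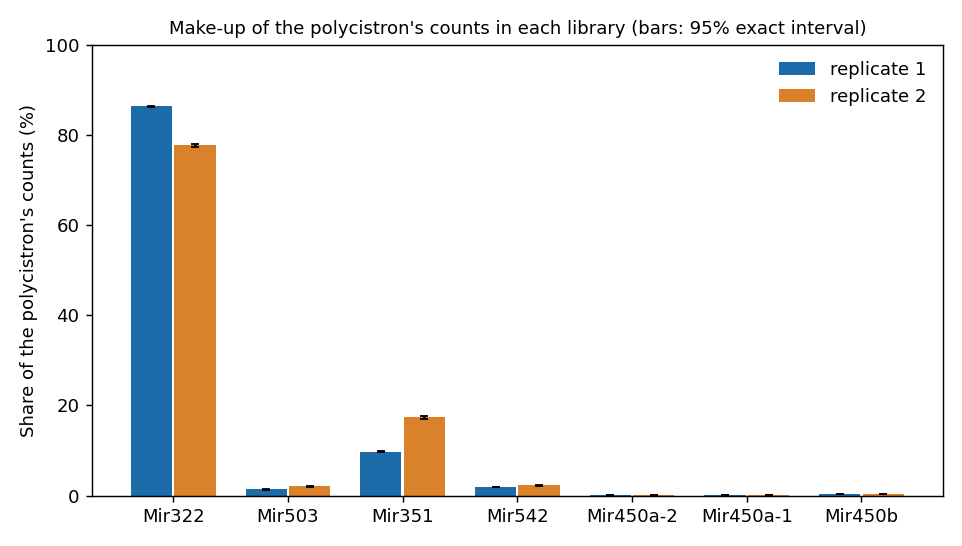
Share of the polycistron's counts held by each member in each library (%), with 95% exact intervals for counting error. Mir322 holds 86.4% and 77.6%, and Mir351 holds 9.77% and 17.4%.

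The sharpest step lay between the closest pair at the 5' end. Mir322 exceeded Mir503, 200 bases downstream, 61.1-fold in replicate 1 (95% exact interval 59.1 to 63.3) and 37.1-fold in replicate 2 (35.3 to 39.1). Their RefSeq hairpins are shown with both mature strands in capitals.
Mir322: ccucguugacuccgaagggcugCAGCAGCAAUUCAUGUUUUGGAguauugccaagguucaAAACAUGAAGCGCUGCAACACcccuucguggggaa
Mir503: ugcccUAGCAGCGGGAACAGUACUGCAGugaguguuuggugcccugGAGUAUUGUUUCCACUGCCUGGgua

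The next step went the other way. Mir351 exceeded Mir503 6.92-fold in replicate 1 (6.67 to 7.17) and 8.31-fold in replicate 2 (7.89 to 8.76). Across the long gap, Mir351 exceeded Mir542 5.14-fold (4.98 to 5.31) and 7.49-fold (7.12 to 7.88). Mir542 exceeded Mir450a-2 40.4-fold (33.6 to 49.1) and 25.1-fold (19.8 to 32.5). The last member, Mir450b, exceeded its neighbour Mir450a-1 5.98-fold (5.09 to 7.05) and 8.39-fold (5.98 to 12.1). Folds over a Mir450a gene are upper limits, since its counts are lower ones. Position along the locus and level were thus not in the same order, in either library.

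Hairpins of 6 members were folded with RNAfold: Mir322, Mir503, Mir542, Mir450a-1, Mir450a-2 and Mir450b. Mir322 had 51.6% G and C and a predicted minimum free energy of -42.9 kcal/mol, Mir503 had 54.9% and -37.6 kcal/mol, and Mir542 had 51.8% and -38.1 kcal/mol. The Mir450 hairpins were poorer in G and C, with 33.0% and -41.0 kcal/mol for Mir450a-1, 36.2% and -26.5 kcal/mol for Mir450a-2, and 30.5% and -31.8 kcal/mol for Mir450b. Total energy was lower for Mir450a-1 than for Mir503 and Mir542, but the hairpins differ in length (91, 71 and 85 bases for these 3). Per 100 bases the energy was -53.0 kcal/mol for Mir503, -45.2 for Mir322, -45.1 for Mir450a-1 and -44.8 for Mir542. It was -38.8 for Mir450b and -38.4 for Mir450a-2. The counts of the Mir450a genes are lower limits, so their place in the order of counts is uncertain. Counts do not separate the strands of a hairpin, so no mature strand has a count of its own. In the mature strands, GC content was 31.8% for each of miR-542-3p, miR-450a-5p and miR-450b-5p. That of miR-322-5p was 40.9% and that of miR-503-5p 56.5%. The parts of predicted stability and base composition in these counts were not tested.

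The polycistron was set beside other groups of neighbouring miRNA genes to place its unevenness. A group was formed from genes on 1 strand with starts at most 10 kb apart, at least 5 annotated genes and at least 100 counts in each library. There were 9 such groups, the polycistron included. Its top member held a mean of 82.0% ± 6.16 of the counts (SD, n = 2), more than in any of the other 8, where the share ran from 32.4% to 55.0% with a median of 39.7%. By the mean, the growth-promoting cluster from Mir17 to Mir92-1 came next with 55.0%, although in replicate 1 the X-linked cluster from Mir532 to Mir500 lay above it (57.8% against 53.5%). The polycistron's mean evenness of 0.315 was close to the 0.321 of the group from Gm22072 to Mir669h. The order of these evenness values changed with the library, with 0.268 against 0.303 in replicate 1 and 0.361 against 0.339 in replicate 2. The group from Gm22072 has 119 annotated genes, of which 7 were detected.

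With groups of at least 3 genes the polycistron was 4th of 17. The groups above it, named after their values were seen, ran from Mirlet7a-1 to Mirlet7d (97.5%), Mir23a to Mir24-2 (96.2%) and Mir23b to Mir24-1 (87.4%). Members of those groups make mature forms that other loci also make, so their shares are uncertain in the way described for Mir450a. No test was made of these differences, since groups differ in size and in shared sequence.

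**Figure D3:**
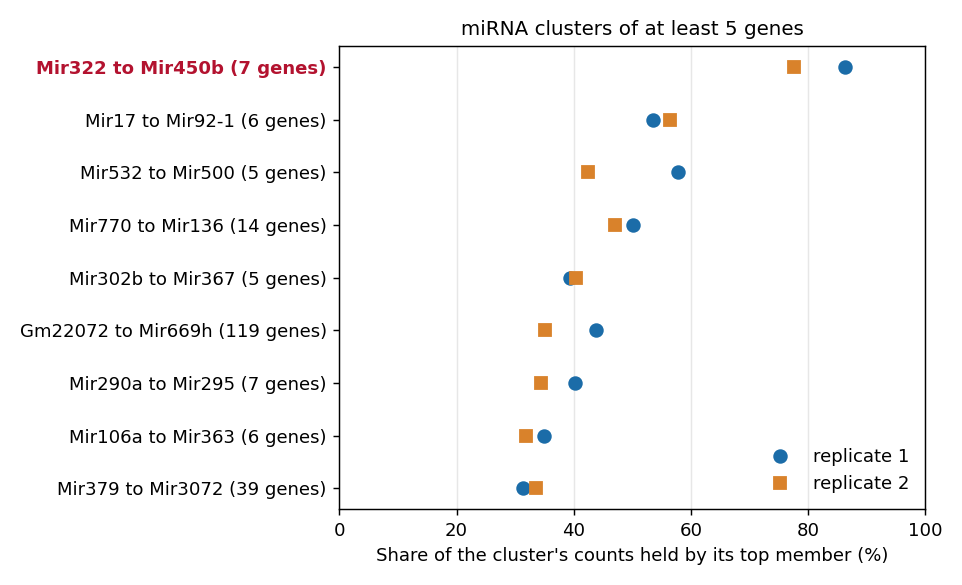
Share of a cluster's counts held by its top member (%), for 9 same-strand miRNA clusters of at least 5 genes, 1 point per library. The polycistron from Mir322 to Mir450b lies at 86.4% and 77.6%, to the right of the other 8.

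Among neighbouring genes, the step between Mir322 and Mir503 was large but did not rank first. Over 65 pairs of adjacent same-strand genes with starts at most 1 kb apart and at least 10 counts in both libraries, the higher gene exceeded the lower by a median of 4.17-fold. The quartiles were 2.03-fold and 13.9-fold. The pair of Mir503 and Mir322, at 47.7-fold as the geometric mean of both libraries, ranked 5th. In 3 of the 4 pairs above it, the lower gene (Mirlet7c-1, Mir24-1 or Mir29b-1) makes a mature form that another locus also makes, so that its counts are lower limits and the fold an upper one. The higher gene was the same in both libraries in 57 of the 65 pairs, Mir322 over Mir503 among them. Adjacent pairs share genes, so they are not independent.

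Seed relatives gave a second view, of how much of a shared target code came from the polycistron. Of the 9 symbols listed for miR-15/16 relatives, 8 matched a gene and 6 were detected. Mir15a stood at 1455 and 2019 CPM in replicates 1 and 2, Mir16-1 at 1831 and 1277 CPM, and Mir15b at 1054 and 1855 CPM. Mir195a had 988 and 554 CPM, Mir16-2 457 and 376 CPM, and Mir497 339 and 237 CPM. All lay far under Mir322 in both libraries, while Mir503 at 865 and 927 CPM fell within their range. Mir195b and Mir497b were listed by name, and their seeds were not looked up here. They had no count in either library, which allows up to 0.757 CPM in replicate 1 and 1.78 CPM in replicate 2.

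Mir322 therefore held 89.6% of the counts of genes with the AGCAGCA seed in this list in replicate 1 (95% exact interval 89.5 to 89.7%) and 84.5% in replicate 2 (84.2 to 84.8%). With Mir503 added to both sides the polycistron's share was 89.8% and 84.8%, a mean of 87.3% ± 3.49 (SD, n = 2). miR-16-5p is made in 1 form from 2 loci, Mir16-1 and Mir16-2, and reads common to both were set aside. These shares are therefore upper limits, by an unknown amount.

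In the miR-125 seed group, Mir351 and Mir125a were near each other. Mir125a stood at 4721 CPM in replicate 1 and 6588 CPM in replicate 2, below Mir351 in each library. Mir125b-1 had 504 and 545 CPM and Mir125b-2 had 203 and 312 CPM. Mir351 held 52.4% (52.0 to 52.9%) and 50.8% (50.2 to 51.5%) of the counts of this group. miR-125b-5p also comes from 2 loci, so the share of Mir351 is again an upper limit.

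**Figure D4:**
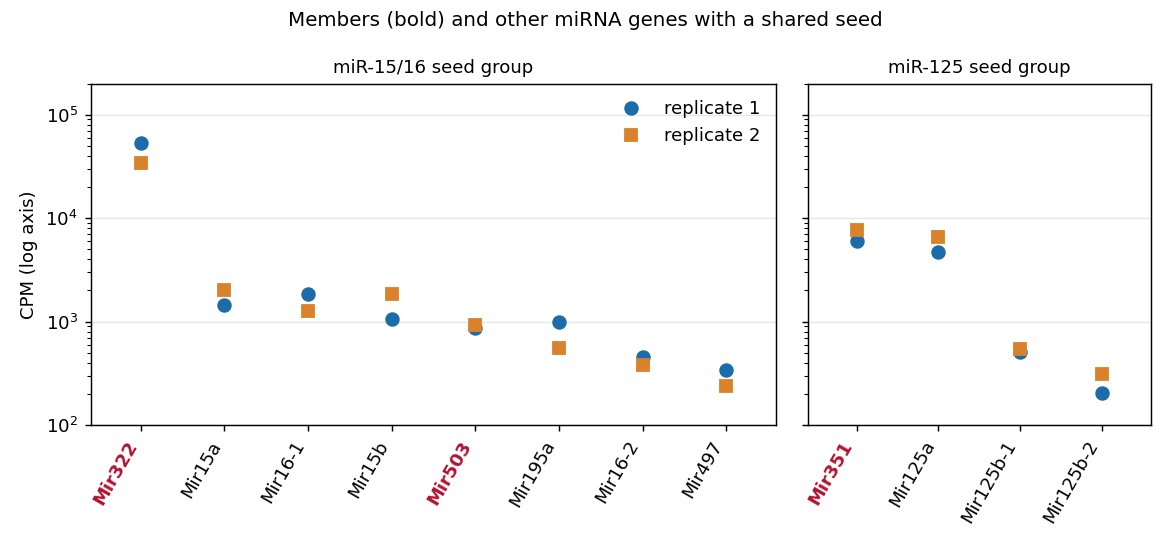
Level (CPM, log axis) of members, in bold, and of other genes with a shared seed, 1 point per library; genes at 0 are left out. Mir322 lies above every miR-15/16 relative in both libraries, Mir503 lies within their range, and Mir351 lies just above Mir125a.

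On the X chromosome, 142 miRNA genes were annotated and 36 were detected. X-linked genes held 8.94% and 7.47% of all miRNA counts. The polycistron made up 68.5% of the X-linked counts in replicate 1 (95% exact interval 68.3 to 68.7%) and 59.3% in replicate 2 (59.1 to 59.6%), a mean of 63.9% ± 6.48 (SD, n = 2). Without Mir322 on either side, its share was 22.9% and 24.6%. By mean level Mir322 was 1st and Mir351 3rd of the X-linked genes, with Mir652 between them at 9491 and 7077 CPM. Of other X-linked groups, the Mir98 and Mirlet7f-2 pair summed to 8678 and 12896 CPM, and the 5 matched genes of the Clcn5 cluster to 2651 and 2414 CPM. The pair of Mir221 and Mir222, which promotes cell division, summed to 247 and 418 CPM. The Mir106a to Mir363 cluster, an X-linked relative of the Mir17 to Mir92-1 cluster, summed to 279 and 196 CPM. The autosomal clusters from Mir17 to Mir92-1 and from Mir106b to Mir25, with 9 members, summed to 14295 and 9909 CPM, below the 61228 and 44327 CPM of the polycistron in the same libraries. Mir19b-1 and Mir92-1 share a mature form with Mir19b-2 and Mir92-2 of the X-linked cluster, so the sums of both clusters are lower limits. Mirlet7f-2 likewise shares a mature form with Mirlet7f-1 outside the X chromosome, so the sum of its pair with Mir98 is also a lower limit. Reads set aside for these genes can make the polycistron's share of X-linked counts too high. Reads set aside for the Mir450a genes can make it too low, each by an unknown amount.

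The members did not move together between the libraries. Each gene's counts were set against the ratio of the library totals in a two-sided exact binomial test, with Benjamini-Hochberg adjustment over the 404 genes that reached 10 counts in one or both libraries. This compares the libraries, not conditions, and covers counting error only. A gene was called different at an adjusted p under 0.05 when replicate 2 over replicate 1 gave a log2 ratio, on CPM + 0.5, above 1 or below -1. No member was called, against 18.3% of all genes tested. At any size of difference all 7 members passed the adjusted exact test, against 62.1% of all genes. For Mir503 and Mir450a-2 this depended on the scaling and on the count filter, as given below. Of the 7, 4 were lower in replicate 2 (32.4% of all genes) and 3 were higher (29.7%). Their median log2 ratio was -0.18, beside -0.05 over all genes tested. Disregarding sign, the median was 0.49 for the members and 0.50 for all genes, so the members were about as far apart as the typical gene. Of the other X-linked lists, Mir363 was lower in replicate 2 (log2 ratio -1.02, 1 of 5 tested in its cluster), Mir222 was higher (1.70, 1 of 2) and Mir501 was higher (1.27, 1 of 5 in the Clcn5 cluster). None of the 6 tested miR-15/16 relatives and none of the 3 miR-125 relatives was called.

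Mir322 had a log2 ratio of -0.62, with replicate 1 higher 1.54-fold (95% exact interval 1.52 to 1.55). Mir351 went the other way, with a log2 ratio of 0.36 (adjusted p = 3.11e-114, exact binomial test) and replicate 2 higher 1.29-fold (1.26 to 1.32). As a result the ratio of Mir322 to Mir351 was 8.84 in replicate 1 (8.72 to 8.96) and 4.47 in replicate 2 (4.39 to 4.56). Without Mir322 the other 6 members summed to 8350 and 9909 CPM, which put replicate 2 ahead, while all 7 summed to more in replicate 1.

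Of the 7 members Mir450a-1 differed most, with a log2 ratio of -0.96 (adjusted p = 0.000144, exact binomial test) and replicate 1 higher 1.97-fold (1.38 to 2.88). It rested on 38 counts in replicate 2. Under the trimmed mean of M-values (TMM), a scaling that moved log2 ratios by -0.11, Mir450a-1 reached -1.07 and was called. It was then among 79 genes called of the 404 tested. Mir450a-2, 54 bases away, went the other way with a log2 ratio of 0.50 (adjusted p = 0.0388, exact binomial test). Under TMM scaling Mir450a-2 was at 0.39 and no longer passed (adjusted p = 0.120, exact binomial test). Mir450b (-0.49) and Mir542 (-0.18) were lower in replicate 2. Mir503 had a log2 ratio of 0.10 (adjusted p = 0.0407, exact binomial test). Under TMM scaling this turned to -0.0075 (adjusted p = 0.925, exact binomial test), so no direction can be given for Mir503. With all genes of at least 1 count tested, the adjusted p was 0.0751 for Mir503 and 0.0716 for Mir450a-2 (exact binomial test).

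**Figure D5:**
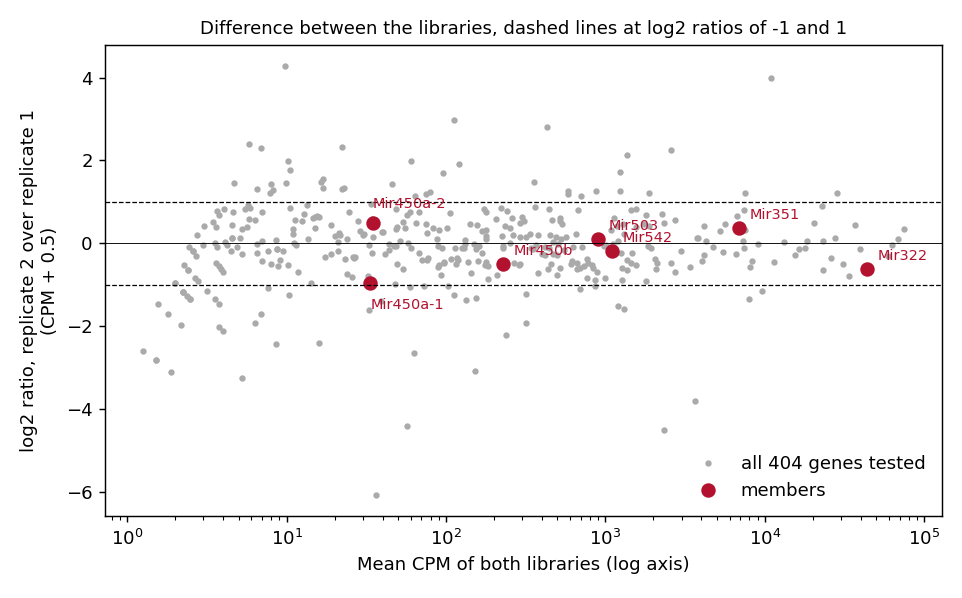
log2 ratio of replicate 2 over replicate 1 (on CPM + 0.5) against mean CPM (log axis) for 404 genes tested, with members labelled. All 7 members lie between the dashed lines at -1 and 1, with Mir322 at -0.62, Mir351 at 0.36 and Mir450a-1 at -0.96.

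Ratios within the polycistron do not depend on the library total. Set against the sum of the other members, Mir351 was higher 1.94-fold in replicate 2 (95% exact interval 1.90 to 1.98), Mir503 1.49-fold (1.40 to 1.58), Mir542 1.23-fold (1.16 to 1.30) and Mir450a-2 1.96-fold (1.44 to 2.67). Mir322 was at 0.549 of its replicate 1 value (0.543 to 0.554) on this scale and Mir450a-1 at 0.700 (0.480 to 0.999). The interval of Mir450b, at 0.984 (0.865 to 1.12), held 1, and that of Mir450a-1 reached almost to 1. These intervals are not adjusted for the number of members. Since Mir322 makes up most of the sum, the ratios of the others follow it in the main.

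The libraries also differed in markers of other tissues. Beside Mir122, called were Mir451a and Mir144 (lower in replicate 2) of 3 red blood cell markers, while Mir486 had 12.4 and 19.6 CPM. Mir206 of striated muscle had 1130 and 2646 CPM and was called, with the other 4 genes of its list at 2 counts or fewer. Those 4 are numbered copies (Mir1a-1 and Mir1a-2, Mir133a-1 and Mir133a-2), and reads matching several loci were given to no gene. Their counts are thus lower limits and do not show that these miRNAs were absent. Of 5 kidney markers, 4 were called, Mir192 and Mir194-2 higher and Mir215 and Mir194-1 lower in replicate 2. Mir194-1 and Mir194-2 are numbered copies as well. Of 3 leukocyte markers Mir223 was called (187 and 521 CPM). Among the gland's own markers, Mir132 of the 3 steroidogenic genes was called too (434 and 965 CPM). The part of other tissues in the members' differences was not tested. With Mir122 and Mir451a left out of the library totals, a change to the scaling alone, Mir322 went from 52878 to 53312 CPM in replicate 1 and from 34419 to 35160 CPM in replicate 2. In bulk tissue, fewer cells of a type and less RNA per cell cannot be told apart. Each animal gave 1 library, so animal, dissection and library preparation cannot be told apart either.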

How the data were processed

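Read counts per miRNA gene were deposited as 1 table per library, made on mm10 with annotation M21 per the deposited file lists. The labels give a size range under 30 nucleotides. The aligner, adapter trimming and read filters are not given in the sources used here. Each table has count columns for either strand, the gene's strand and the opposite strand. The third column of the table, the gene's strand, was used. The 4 summary rows (multiple loci, outside miRNA genes, unaligned) held 66.3% and 74.3% of reads and were left out of totals.

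All 2202 identifiers matched GENCODE M21. Of the members, 5 matched by symbol, and Mir450a-1 and Mir450a-2 are named Mir450-1 and Mir450-2 there. Named genes were the members, fixed lists and neighbours in level. Members and lists were chosen with earlier results of these data known. Small RNA libraries can capture different miRNAs unequally, so ratios between members are ratios of reads; this was not tested. Intervals are exact Clopper-Pearson at 95% and, like the limit of 3 counts for a gene at 0, cover counting error only, since reads are not independent molecules. The planned test of make-up among the members is given as intervals. The exact test was checked on data simulated with counting error only, so that check does not cover differences between animals or preparations. Alternatives used edgeR 4.0.16 and DESeq2 1.42.0 in R 4.3.3 for scaling. Python 3.11.15, scipy 1.17.1 and RNAfold 2.7.2 did the rest. RefSeq sequences (GRCm38.p6) matched all 7 members for mature strands and 6 for hairpins.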

Additional observations from a re-analysis of the deposited data

How the results depend on the processing

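With 2 libraries of 1 group, leaving out either one gives the value of the other: summed levels of 44327 and 61228 CPM, and Mir322 shares of 77.6% and 86.4%. Such values cannot move beyond the spread. Members called different numbered 1 under TMM scaling and 1 under DESeq2 size factors (Mir450a-1, at -1.07 in both), 2 at a log2 ratio beyond 0.58 (Mir322 and Mir450a-1) and 7 at any size, against 0. Of the 404 genes tested, 79 were called under TMM scaling and 79 under DESeq2 size factors. At a log2 ratio beyond 0.58 the number was 132 of 404, and at any size 251 of 404, against 74. The log2 ratio of Mir503 turned from 0.10 to -0.0075 under TMM and -0.0077 under DESeq2 size factors. At any size, Mir503 and Mir450a-2 did not pass under either scaling, nor with all genes of at least 1 count tested. Tested among the members alone with adjustment, 5 differed in make-up, without Mir450a-1 and Mir450b, and 3 did with a log2 ratio beyond 0.58 as well. The make-up test has no counterpart over all genes. Its calls are not separate results, since the ratios of the other members mainly follow Mir322. The rank of the polycistron by its top member's share was 4 of 17 with groups of at least 3 genes, against 1 of 9, and could not be computed with starts at most 3 kb apart, which splits the polycistron between Mir351 and Mir542. The rank of Mir322 over Mir503 was 12 of 99 pairs with starts at most 10 kb apart and 3 of 45 with at least 100 counts, against 5 of 65; this ranking and its alternatives were chosen after seeing the data. In the either-strand column, which gives ambiguous reads to no gene, Mir503 stood at 1023 CPM and Mir542 at 1251 CPM. Counts of 38 to 176 limit the Mir450a genes.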
